A study of Homo sapiens with 6 samples.

Results

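The genes described here encode the solute carriers of the SLC25A family and the 3 voltage-dependent anion channels, VDAC1, VDAC2 and VDAC3. They were chosen by symbol, as every gene named SLC25A followed by a number or VDAC1 to VDAC3, and 48 genes of 31767 met that rule, 45 carriers and 3 channels with 299 transcripts of 153848. HMC3 cells are an immortalized line derived from human microglia. Cultures irradiated with 15 Gy of X-rays and control cultures given 0 Gy, each with n = 3 independent cultures, were collected 24 h later, and polyadenylated RNA was sequenced as full-length cDNA on Oxford Nanopore flow cells. No other line, dose or time was measured, so all values describe a single line at a single time. The comparison asked how irradiation changed the level and the isoform usage of these genes.

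Most SLC25 proteins sit in the inner mitochondrial membrane, where they exchange nucleotides, phosphate, carboxylates, amino acids and cofactors between cytosol and matrix. VDAC proteins are the pores of the outer membrane through which most of these solutes pass. ADP/ATP carriers and the phosphate carrier together supply the substrates of ATP synthase and return the ATP it makes, in microglia as in other cells.

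The 6 libraries held between 6292049 and 6909420 counts in irradiated cultures and between 4870897 and 9082409 counts in controls, and the carriers and channels took 0.227% to 0.235% of them in irradiated cultures and 0.228% to 0.244% in controls. After low counts were removed, 38 of the 48 genes and 191 of their transcripts were tested, among 11117 genes and 74843 transcripts. The other 10 genes (SLC25A18, SLC25A21, SLC25A27, SLC25A33, SLC25A34, SLC25A40, SLC25A41, SLC25A45, SLC25A48 and SLC25A52) had between 1 and 110 counts summed over all 6 libraries or fewer than 2 kept transcripts. Of 14 microglial markers, 7 had values here. Of these, 6, among them AIF1, CSF1R, TREM2 and SPI1, stayed at 13 counts or fewer in every library. CD68 had 224 to 280 counts in irradiated cultures and 114 to 226 in controls. These are raw counts, not scaled to library size, and the 114 is from control replicate 1, the library with 4870897 counts. Of 8 fibroblast or pericyte markers, 7 had values, and 1 of these, DCN, stayed at 13 counts or fewer in every library. Their summed level was 323 to 395 CPM (counts scaled to an equal library size) in irradiated cultures and 250.2 to 301 CPM in controls. The 7 microglial markers summed to 38.6 to 43.9 CPM in irradiated cultures and 21.7 to 27.2 CPM in controls. For 3 neuron markers the sums were 18.7 to 26.3 and 18.2 to 24.1 CPM, and for 3 astrocyte markers 0.868 to 3.66 and 0.0 to 1.43 CPM. These sums were scaled by library totals, without the TMM factors used for the genes below. Those factors were 1.092 to 1.242 in irradiated cultures and 0.793 to 0.928 in controls, so TMM scaling would lower the irradiated sums and raise the control sums. CD68 was the only one of these 7 microglial markers above 13 counts in any library. The part that culture composition had in the results below was not tested.

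Across the family, more genes fell than rose with TMM scaling, which sets each library against the bulk of its genes. With edgeR's quasi-likelihood test and Benjamini-Hochberg adjustment over all genes, 9 of 38 members were lower and 3 were higher in irradiated cultures at an adjusted p under 0.05, against 14.1% lower and 11.6% higher among all tested genes. The median log2 fold change, irradiated over control, was -0.14 over the 38 members and 0.08 over all 11117 genes, with 23 members below and 15 above 0. With library totals alone 9 members were higher and 3 lower, against 32.8% higher and 3.19% lower among all tested genes. That scaling moved these medians to 0.31 and 0.53, so directions are relative to the other genes of a library: SLC25A3, SLC25A4 and VDAC2 then turned above 0 (0.10, 0.32 and 0.15), and SLC25A11, SLC25A17, SLC25A51 and VDAC3 no longer passed. The 3 higher members were 1 without irradiated replicate 1, irradiated replicate 3 or control replicate 2. Higher genes in all were then 693, 716 and 733, against 1290 with all 6 libraries. The member median ran to 0.013 without control replicate 1 and -0.31 without control replicate 3. With the limit of an absolute log2 fold change over 1, only SLC25A28 was differentially expressed (1 higher and 0 lower of 38, against 3.99% and 1.70% of all genes), whereas library totals put 5 higher and 0 lower past both limits, against 17.3% and 0.198%. At an unadjusted p under 0.05, edgeR gave 11 lower and 6 higher of 38 members, against 2149 lower and 2182 higher of all 11117 genes. DESeq2 gave 0 members past both limits. In bulk RNA, fewer cells of a kind and less RNA per cell cannot be told apart.

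**Figure D1:**
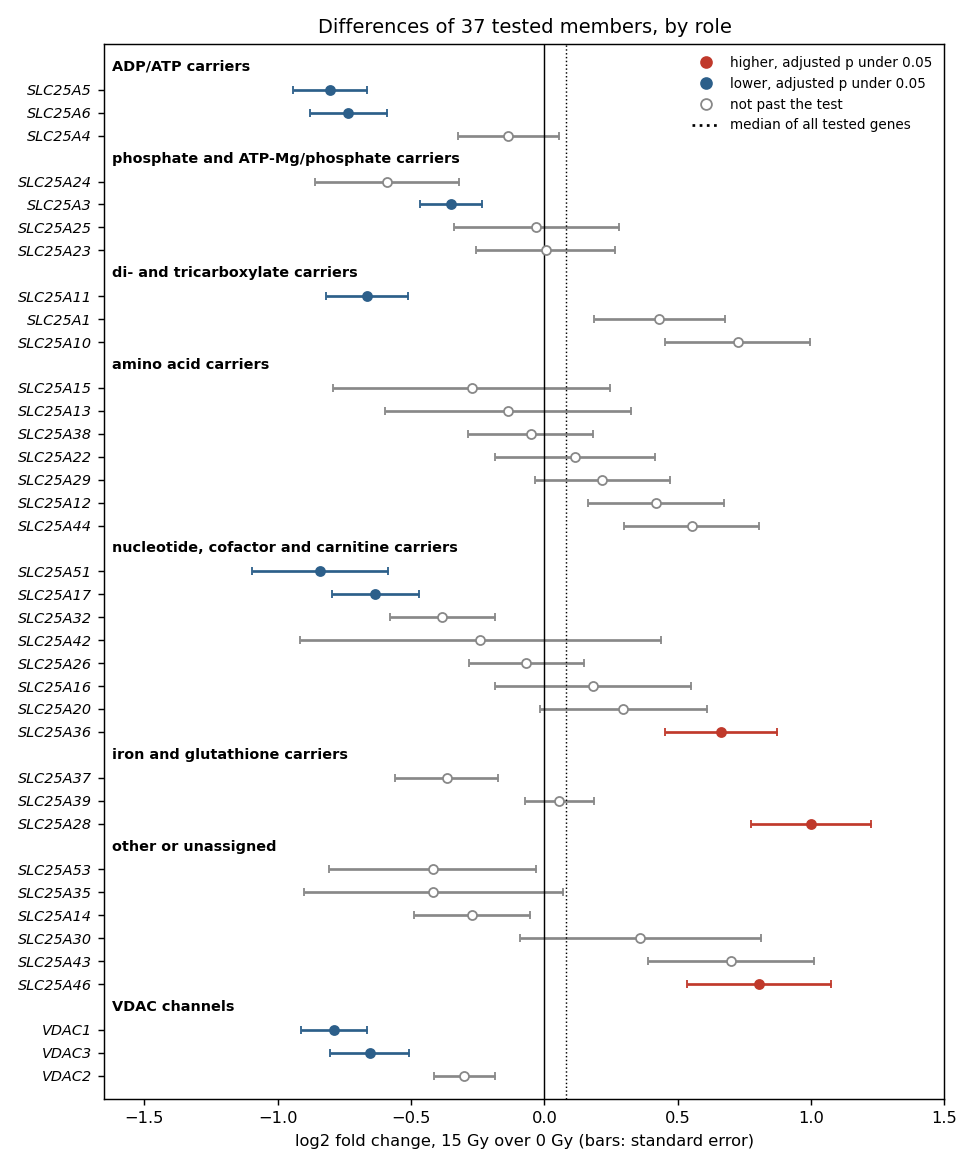
Log2 fold change of 37 of the 38 tested members (15 Gy over 0 Gy, n = 3 cultures each), grouped by transported substrate, with bars for the standard error. Filled points passed an adjusted p under 0.05 in edgeR's quasi-likelihood test (higher in red, lower in blue), and the dotted line marks the median of all tested genes at 0.08. Scaling is by TMM; with library totals alone SLC25A3, SLC25A4 and VDAC2 turn above 0.

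The ADP/ATP carriers exchange cytosolic ADP for matrix ATP, and 2 of 3 fell, against 14.1% lower among all tested genes. SLC25A5 and SLC25A6 lay above 50 CPM, where 45.6% of all genes were lower. SLC25A5, the form typical of dividing cells, had 208, 275.8 and 237 CPM in irradiated cultures, against 430.0, 479 and 349 CPM in controls. All 3 irradiated cultures lay below all 3 controls, and its log2 fold change was -0.80 ± 0.14 (SE; edgeR adjusted p = 0.00116, n = 3 each). SLC25A6, the ubiquitous form, had 320.2, 431 and 349 CPM in irradiated cultures, against 636, 691 and 503 CPM in controls, again without overlap, with a log2 fold change of -0.73 ± 0.14 (SE; edgeR adjusted p = 0.0021). With library totals these log2 fold changes were -0.35 for SLC25A5 and -0.28 for SLC25A6 (edgeR adjusted p = 0.0134 and 0.0325), and with an offset for transcript length that of SLC25A5 was -0.52 (0.00437). SLC25A6 lies in the region shared by both sex chromosomes and is listed under 2 gene identifiers whose counts differed by at most 3 in a library, so both were summed.

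SLC25A4, the form typical of heart and skeletal muscle, had 32.4, 35.3 and 35.7 CPM in irradiated cultures and 47.9, 38.7 and 28.1 CPM in controls. The groups overlapped, and the log2 fold change of -0.14 ± 0.19 did not pass the test (SE; edgeR adjusted p = 0.636). Without control replicate 1 it turned to 0.03. SLC25A31, the testis form, had no entry among the 48 genes that met the rule. The coding sequences of SLC25A4, SLC25A5 and SLC25A6, each 897 bases, were 77.3% to 78.8% identical by global alignment.

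All 3 channels had lower means in irradiated cultures with TMM scaling, and 2 passed the test. With library totals VDAC2 turned to 0.15 on the log2 scale. The group-averaged levels of all 3 were above 50 CPM, where 45.6% of all genes were lower, against 14.1% at any level. VDAC1, the most studied isoform and a docking site for hexokinase, had 135, 157 and 154 CPM in irradiated cultures, against 276, 272 and 223 CPM in controls. The groups were separate, with a log2 fold change of -0.79 ± 0.12 (SE) and the smallest adjusted p of the family (0.000761, edgeR). VDAC3 had 44.95, 55.2 and 46.8 CPM in irradiated cultures and 85.5, 79.6 and 67.0 CPM in controls, also without overlap (log2 fold change -0.66 ± 0.15, SE; edgeR adjusted p = 0.00483). With library totals VDAC1 was at -0.33 (adjusted p = 0.015) and VDAC3 at -0.20 (0.235), and with the length offset VDAC3 was at -0.39 (0.0465).

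VDAC2, which in mouse cells binds the pro-apoptotic protein BAK, had 199, 222 and 214 CPM in irradiated cultures and 259, 284 and 239 CPM in controls. These values did not overlap, but the log2 fold change of -0.30 ± 0.12 missed the threshold (SE; edgeR adjusted p = 0.0661). It passed with DESeq2 (adjusted p = 0.0341) and without control replicate 3 (0.0137), whereas the length offset brought the log2 fold change to -0.05 (edgeR adjusted p = 0.719). Whether VDAC2 differed from VDAC1 or VDAC3 in its response was not tested.

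**Figure D2:**
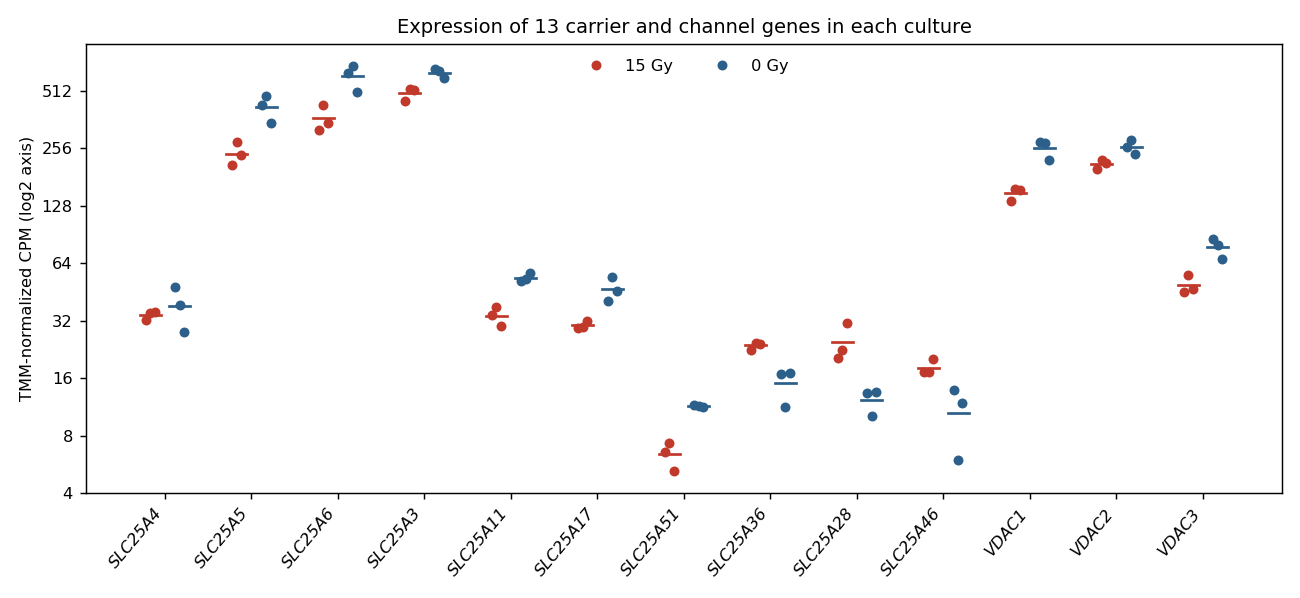
TMM-normalized CPM on a log2 axis in each irradiated (red, left) and control (blue, right) culture for 13 members, with bars at the mean of 3 cultures. SLC25A4 is the only gene shown whose groups overlap. SLC25A28, SLC25A36 and SLC25A46 lie higher in irradiated cultures and the other 9 lie lower. Of these 9, SLC25A3 and VDAC2 turn higher with library totals alone, as does SLC25A4. Apart from the ADP/ATP carriers, SLC25A3 and VDAC1 to VDAC3, the genes shown were picked for an adjusted p under 0.05, which favours separate groups.

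SLC25A3, the carrier that brings phosphate into the matrix and is also known for carrying copper, had 454, 525 and 519 CPM in irradiated cultures and 666, 647 and 597 CPM in controls. The groups were separate, and the log2 fold change was -0.35 ± 0.12 (SE; edgeR adjusted p = 0.0347). Leaving out irradiated replicate 1, irradiated replicate 3, control replicate 1 or control replicate 2 in turn ended the call, with adjusted p of 0.149, 0.0941, 0.136 and 0.0783. The calcium-regulated ATP-Mg/phosphate carriers SLC25A23, SLC25A24 and SLC25A25 did not pass the test, with log2 fold changes of 0.00, -0.59 and -0.03.

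SLC25A3 carries a pair of mutually exclusive coding exons, exon 3A, used chiefly in heart and muscle, and exon 3B, used in most tissues. They are printed because the transcripts that contain them moved apart. Capitals mark the exon and lower case the last and first 15 bases of the neighbouring exons, read from the GENCODE 29 transcripts ENST00000228318 and ENST00000188376 on GRCh38, plus strand, at chr12:98595433-98595557 (125 bases) and chr12:98595727-98595848 (122 bases).
SLC25A3 exon 3A: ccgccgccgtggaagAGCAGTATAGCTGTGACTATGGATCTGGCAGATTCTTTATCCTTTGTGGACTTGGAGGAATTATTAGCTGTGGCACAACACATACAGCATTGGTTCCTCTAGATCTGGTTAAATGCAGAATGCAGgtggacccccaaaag
SLC25A3 exon 3B: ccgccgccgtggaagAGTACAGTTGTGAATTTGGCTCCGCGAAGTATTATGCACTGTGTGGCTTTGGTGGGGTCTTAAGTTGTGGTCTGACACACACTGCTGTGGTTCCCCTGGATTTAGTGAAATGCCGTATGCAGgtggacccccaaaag
The exons were 64.8% identical by global alignment. The shared flanks show that either exon joins the same neighbours.

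Of the 12 kept SLC25A3 transcripts, 3 contained exon 3A, 7 ended their alternative exon at the end of exon 3B, and 2 were short 3′-end transcripts with neither. The exon 3A group took 27.1%, 25.4% and 27.7% of the gene's counts in irradiated cultures, against 16.7%, 13.2% and 20.3% in controls. The exon 3B group took 62.1%, 65.9% and 61.7% in irradiated cultures and 79.0%, 82.0% and 72.0% in controls. Neither share overlapped between groups, and the exon 3B share differed by -14.4 percentage points (two-sided exact permutation p = 0.1 for each share, the smallest that 3 against 3 cultures allow).

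The 3′-end transcripts of SLC25A3 moved with them, with 10.8%, 8.69% and 10.6% of its counts in irradiated cultures and 4.33%, 4.85% and 7.74% in controls. Control replicate 3 lay nearest to the irradiated cultures in all 3 shares. The ratio of exon 3A to 3′-end counts overlapped between groups, at 2.51, 2.92 and 2.60 in irradiated cultures and 3.85, 2.72 and 2.62 in controls. Among counts of the 2 exon groups alone, exon 3A held 29.7% ± 1.68 in irradiated cultures and 17.8% ± 4.06 in controls (SD, n = 3 each). The part of 3′-end counts in the exon shares was not tested, and this grouping of transcripts was chosen after their values were seen.

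**Figure D3:**
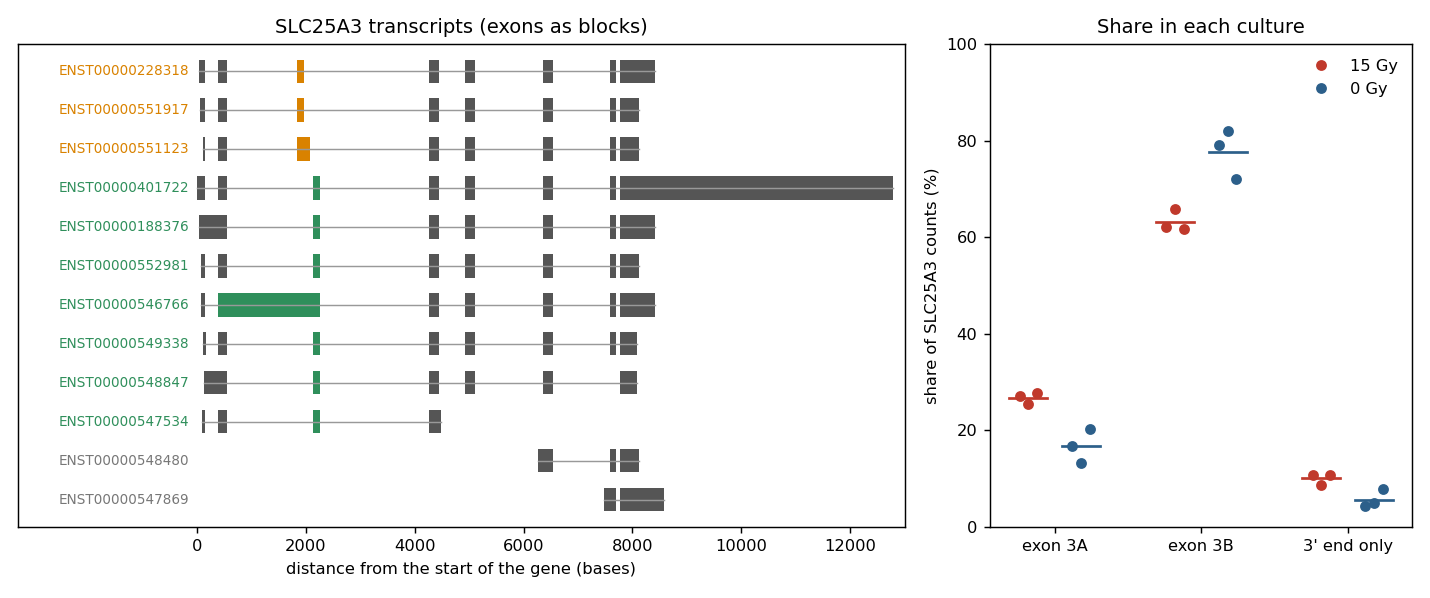
Left, exon blocks of the 12 kept SLC25A3 transcripts by distance in bases from the gene's start, with exon 3A in orange and exon 3B in green; ENST00000546766 retains the introns from exon 2 to exon 3B and so also spans exon 3A. Right, the share of SLC25A3 counts of each class in irradiated (red, left) and control (blue, right) cultures, with bars at the mean: exon 3A 26.7% irradiated and 16.7% control, exon 3B 63.2% irradiated and 77.6% control, 3′ end only 10.05% irradiated and 5.64% control.

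Among single SLC25A3 transcripts, ENST00000549338, a short exon 3B form, was differentially abundant, with 38, 47 and 46 counts in irradiated cultures and 68, 97 and 78 in controls (log2 fold change -1.22 ± 0.21, SE; edgeR adjusted p = 3.84e-07). The most counted transcript, ENST00000401722, fell by 0.69 on the log2 scale (edgeR adjusted p = 0.00033), short of the limit on the fold change. The exon 3A transcripts ENST00000228318 and ENST00000551917 and the nonsense-mediated decay form ENST00000551123 had log2 abundance differences of 0.26 to 0.33 that did not pass. Usage of these 3 isoforms changed by 3.23 to 3.45 percentage points at adjusted p of 0.00505 to 0.0138 (edgeR's diffSpliceDGE), under the limit of 10 points for a switch. In every library the 4 largest exon 3B forms had counts within 10% of one another, and of 157 member transcripts with at least 20 counts in all, 33 had such a partner. How the quantification shared reads among them was not tested.

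Of 3 tested di- and tricarboxylate carriers, 1 fell, against 14.1% of all tested genes. SLC25A11, which exchanges oxoglutarate for malate in the malate-aspartate shuttle, had 34.3, 37.5 and 30.0 CPM in irradiated cultures, against 51.4, 52.6 and 57.0 CPM in controls. The groups were separate, with a log2 fold change of -0.67 ± 0.15 (SE; edgeR adjusted p = 0.00546), and -0.22 with library totals (0.296). SLC25A10, the dicarboxylate carrier, and SLC25A1, the citrate carrier, had log2 fold changes of 0.73 and 0.43 that did not pass (edgeR adjusted p = 0.0606 and 0.21), and the groups of both overlapped.

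None of the 7 tested amino acid carriers passed the test at gene level. Their log2 fold changes ran from -0.27 for SLC25A15, the ornithine carrier, to 0.55 for SLC25A44, a branched-chain amino acid carrier. At an unadjusted p under 0.05, 1 of the 7 was higher and 0 lower, against 2182 higher and 2149 lower of all 11117 genes. SLC25A44 had 13.8, 17.6 and 13.4 CPM in irradiated cultures and 6.77, 10.9 and 12.2 CPM in controls, without overlap (edgeR adjusted p = 0.116).

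Of the nucleotide, cofactor and carnitine carriers shown here, 2 fell and 1 rose, against 14.1% lower and 11.6% higher among all tested genes. Another 5 did not pass (SLC25A16, SLC25A20, SLC25A26, SLC25A32 and SLC25A42, with log2 fold changes of -0.38 to 0.30). SLC25A17, a peroxisomal carrier of cofactors such as coenzyme A, averaged 30.2 CPM in irradiated cultures and 46.8 CPM in controls (log2 fold change -0.64, edgeR adjusted p = 0.0102). SLC25A51, the mitochondrial NAD+ carrier, averaged 6.37 ± 1.06 CPM in irradiated cultures and 11.4 ± 0.155 CPM in controls (SD, n = 3 each; log2 fold change -0.84, edgeR adjusted p = 0.0244). SLC25A17 lost its call without control replicate 2 (adjusted p = 0.0581), and SLC25A51 lost it without irradiated replicate 1, irradiated replicate 3 or control replicate 2 (0.068, 0.106 and 0.0649) and with the length offset (0.0854).

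SLC25A36, a pyrimidine nucleotide carrier, was the member of this group that rose. It had 22.3, 24.5 and 24.3 CPM in irradiated cultures, against 16.8, 11.3 and 16.9 CPM in controls. No control reached the lowest irradiated culture, and the log2 fold change was 0.66 ± 0.21 (SE; edgeR adjusted p = 0.0293). The call was lost without irradiated replicates 1, 2 or 3 or control replicate 2 (adjusted p = 0.0621, 0.0699, 0.0905 and 0.117) and with the length offset (0.116).

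Of 3 tested iron and glutathione carriers, 1 rose, against 11.6% of all tested genes. SLC25A28 (mitoferrin-2), which imports iron into mitochondria of non-erythroid cells, had 20.5, 22.4 and 30.9 CPM in irradiated cultures, against 13.3, 10.1 and 13.6 CPM in controls. Every irradiated culture was above every control, and the log2 fold change of 1.00 ± 0.23 lay just over the limit of 1 (SE; edgeR adjusted p = 0.0048). RLE factors, DESeq2 and the filterByExpr filter put it at 0.97, 0.97 and 0.99, under that limit. Without irradiated replicate 3 it was 0.80 (adjusted p = 0.0415) and without control replicate 2 it was 0.88 (adjusted p = 0.0246). SLC25A37 (mitoferrin-1), best known from red cell precursors, differed by -0.37 on the log2 scale (edgeR adjusted p = 0.174), and SLC25A39, a mitochondrial glutathione carrier, by 0.06 (adjusted p = 0.788). The difference between the mitoferrins was not tested.

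SLC25A46, an outer membrane protein of the family that acts in mitochondrial fission and lipid contact sites, had 17.3, 17.2 and 20.1 CPM in irradiated cultures and 13.8, 5.97 and 11.9 CPM in controls. The groups did not overlap, and the log2 fold change was 0.81 ± 0.27 (SE; edgeR adjusted p = 0.0383). Without irradiated replicates 1, 2 or 3 or control replicate 2 it no longer passed (adjusted p = 0.0768, 0.0557, 0.126 and 0.147), nor with the length offset (0.118). The other 5 tested members without a role assigned here, SLC25A14, SLC25A30, SLC25A35, SLC25A43 and SLC25A53, did not pass, with log2 fold changes of -0.42 to 0.70.

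Level and transcript length moved with these differences. At a group-averaged level of at least 50 CPM, 5 of 7 members were lower and 0 higher, and of 2079 genes in all at that level 45.6% were lower and 12.2% higher. Below it, 4 of 31 members were lower and 3 higher, against 6.8% and 11.5% of 9038 genes. The 9 members that fell had count-weighted transcript lengths of 1274 to 2574 bases (median 1853). The 3 that rose had 1095 to 3873 bases (median 3818), and the 26 that did not pass had 1436 to 5401 bases (median 2340). The 1095 bases of SLC25A28 rest on ENST00000370495, ENST00000496035 and ENST00000434701 alone (113, 95 and 77 counts in all). Its other kept transcripts, among them ENST00000700247 with 110 counts, are not in GENCODE 29 and had no length. Across genes, Spearman's rho between transcript length and log2 fold change was 0.40 over the 38 members and 0.37 over 10668 genes with a length, given as a description because genes of the same libraries are not independent replicates. With a length offset fitted to each library, 8 of 38 members were lower and 1 was higher, against 1186 lower and 1031 higher of all 11117 genes. That higher member was SLC25A28, whose offset used the partial length. The part of level and length in single results was not tested.

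Isoform usage was described by the isoform fraction (IF), the share of a gene's counts on a transcript, and dIF, the mean IF of irradiated minus control cultures. Of 191 member transcripts, 4 in 3 genes switched, which asked for a dIF of 0.1 or more in size and passing edgeR's diffSpliceDGE at 0.05 after adjustment, against 0.404% of 74807 isoforms. There were 2 without irradiated replicate 1 or control replicate 1 and 1 without irradiated replicate 3 or control replicate 2. At the level of abundance, 5 member transcripts were higher and 13 lower past both limits, against 3.36% and 4.33% of all transcripts. With library totals 30 were higher and 5 lower, against 16.8% and 0.855% of all transcripts. The 18 past both limits with TMM were 10 without irradiated replicate 3, 29 without control replicate 3 and 8 with DESeq2.

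VDAC1 exchanged transcripts that differ at their 5′ ends. ENST00000265333, whose first exon lies farthest upstream (chr5:134004895-134005133 on GRCh38), held 33.8%, 26.6% and 34.1% of VDAC1 counts in irradiated cultures, against 14.4%, 14.3% and 19.7% in controls. ENST00000395047 (first exon chr5:134004647-134004842) held 17.2%, 24.0% and 17.9% in irradiated cultures and 33.2%, 34.1% and 29.4% in controls. Neither share overlapped between groups. The dIF was 0.15 for ENST00000265333 (edgeR's diffSpliceDGE adjusted p = 0.000149) and -0.13 for ENST00000395047 (adjusted p = 0.00694).

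The abundance of ENST00000395047 fell with a log2 fold change of -1.55 ± 0.17 (SE; edgeR adjusted p = 3.85e-17), the smallest adjusted p of any member transcript, whereas that of ENST00000265333 differed by 0.14 (adjusted p = 0.603). The most used form, ENST00000395044, starts its first exon farther downstream (chr5:134004647-134004742), with the same splice donor as ENST00000395047, and held 48.5% ± 0.75 in irradiated cultures and 51.0% ± 0.59 in controls (SD, n = 3 each). All 3 transcripts hold the same coding sequence of 852 bases including the stop codon. The gain of ENST00000265333 stayed past the limits without each library in turn, and the loss of ENST00000395047 missed the adjusted p without irradiated replicate 1, irradiated replicate 3, control replicate 1 or control replicate 2 (0.103, 0.142, 0.0641 and 0.0573).

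In VDAC2, the most used form ENST00000332211 held 42.5%, 46.2% and 42.1% of counts in irradiated cultures, against 66.2%, 67.6% and 58.0% in controls. That dIF of -0.20, with no overlap, was the largest of the family (edgeR's diffSpliceDGE adjusted p = 0.0127). It missed the adjusted p without irradiated replicate 1, irradiated replicate 3, control replicate 1 or control replicate 2 (0.119, 0.177, 0.106 and 0.0585). ENST00000543351, with another first exon and the same coding sequence of 885 bases, held 22.4% ± 0.82 in irradiated cultures and 12.9% ± 3.04 in controls (SD, n = 3 each; a dIF of 9.53 percentage points, under the limit, edgeR's diffSpliceDGE adjusted p = 0.000171).

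A retained-intron transcript of the 3′ end of VDAC2, ENST00000460044, held 11.7%, 9.70% and 12.6% of the gene's counts in irradiated cultures, against 3.38%, 3.18% and 6.36% in controls. It was among the 5 member transcripts that rose in abundance past both limits (log2 fold change 1.03 ± 0.18, SE; edgeR adjusted p = 1.08e-06). It has 2 exons and begins downstream of the start codon of the gene's coding forms.

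**Figure D4:**
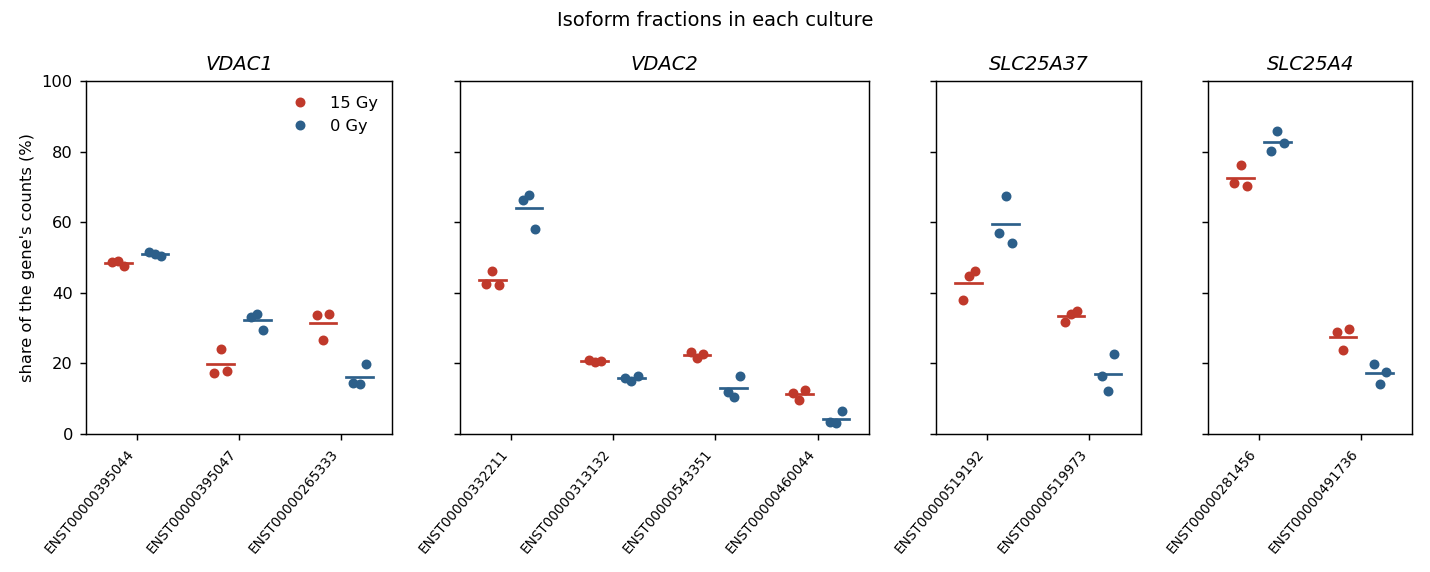
Share of each gene's counts (IF, in %) on its main transcripts in each irradiated (red, left) and control (blue, right) culture, with bars at the mean. ENST00000332211 of VDAC2 averaged 43.6% in irradiated cultures and 63.9% in controls, and ENST00000265333 of VDAC1 averaged 31.5% in irradiated cultures and 16.1% in controls.

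SLC25A37 gained ENST00000519973, its full-length coding form, which held 31.7%, 34.0% and 34.7% of counts in irradiated cultures, against 16.5%, 12.02% and 22.6% in controls (dIF 0.16, edgeR's diffSpliceDGE adjusted p = 0.0066). The short processed transcript ENST00000519192, which ends early in the gene, held 37.8%, 44.7% and 46.1% in irradiated cultures and 56.9%, 67.4% and 54.2% in controls. Its dIF of -0.17 passed with limma's diffSplice (adjusted p = 0.0148) but not with edgeR (0.194). The gain of ENST00000519973 missed the adjusted p without irradiated replicate 3 (0.0746) and without control replicate 2 (0.108). With counts divided by transcript length its dIF was 0.04, under the limit.

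SLC25A4, which did not pass the gene test, had 27.5% ± 3.26 of its counts on the nonsense-mediated decay form ENST00000491736 in irradiated cultures and 17.2% ± 2.85 in controls (SD, n = 3 each), a dIF of 0.10 that did not pass (edgeR's diffSpliceDGE adjusted p = 0.11). Its coding form ENST00000281456 held the rest. For SLC25A5, SLC25A6 and VDAC3 usage was near constant. ENST00000317881 held at least 99.84% of SLC25A5 in each culture, and ENST00000022615 averaged 96.6% of VDAC3 in irradiated cultures and 96.8% in controls. ENST00000381401 averaged 49.5% of SLC25A6 in irradiated cultures and 49.0% in controls, and ENST00000711214, the corresponding entry under the second gene identifier, held nearly all of the rest, with 9423 counts in all beside 9421.

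The other member transcripts past both limits of abundance named here had 40 to 97 counts summed over the 6 libraries, apart from ENST00000435456 of SLC25A17 with 518. Those higher were ENST00000504098 of SLC25A46 (log2 fold change 1.37), ENST00000700251 and ENST00000496035 of SLC25A28 (1.19 and 1.03) and ENST00000263812 of SLC25A12, a nonsense-mediated decay form (1.05). Those lower included ENST00000435456 of SLC25A17 (-1.01) and ENST00000466080 of VDAC1 (-2.05). The SLC25A6 transcripts ENST00000475167, ENST00000711213 and ENST00000484026 (-1.94, -1.84 and -1.52) were lower too. ENST00000466080, ENST00000475167 and ENST00000484026 reach the start codon but not the stop codon of the gene's most counted coding form. ENST00000475167 had 6, 10 and 5 counts in irradiated cultures and 18, 26 and 22 in controls, and ENST00000711213 had 7, 11 and 5 in irradiated cultures and 19, 26 and 22 in controls. They are listed under different identifiers of SLC25A6, and whether they count the same reads was not tested.

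Counts assigned to transcripts of the 3′ end of the message took a larger share in irradiated cultures, and the reads themselves were not examined. Transcripts that reach the stop codon but not the start codon of the gene's most counted coding form took 6.65%, 5.06% and 6.80% of member counts in irradiated cultures, against 2.61%, 2.28% and 4.15% in controls. Over all 9740 tested genes with such a form, these shares were 12.3%, 10.7% and 11.9% in irradiated cultures and 7.60%, 7.22% and 8.90% in controls. Both comparisons were without overlap, and control replicate 3 was the highest control in each. For SLC25A37 the shares overlapped, at 7.93%, 5.66% and 4.19% in irradiated cultures and 5.50%, 3.86% and 6.32% in controls. Its ENST00000519192, which held a smaller share in irradiated cultures, ends before the stop codon. The part of this shift in the isoform results of VDAC2, SLC25A3 and SLC25A37 was not tested. Nor was its part in the lower transcripts that end before the stop codon. VDAC1 had 0 kept transcripts of the 3′-end kind.

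**Figure D5:**
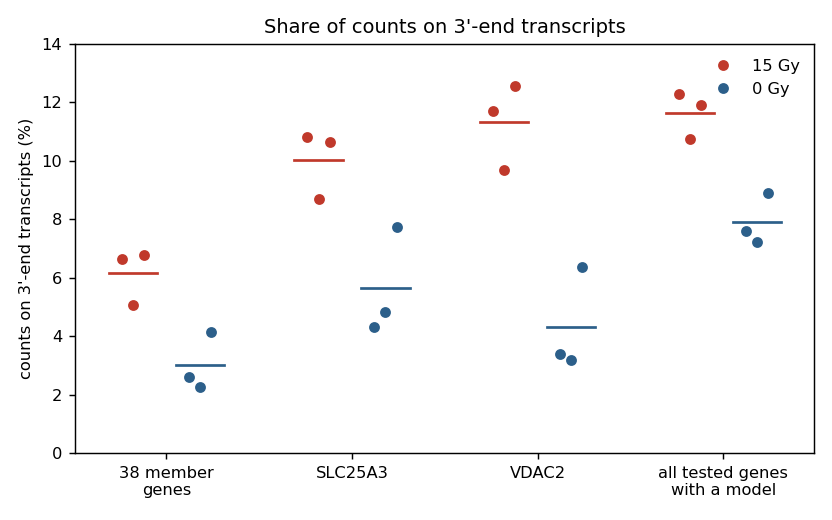
Percentage of counts on 3′-end transcripts in each irradiated (red, left) and control (blue, right) culture, with bars at the mean, for the 38 member genes together, SLC25A3, VDAC2 and all 9740 tested genes with a coding model. In all 4 sets the lowest irradiated culture lies above the highest control.

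The promoters of members were searched for the 10-letter site of the factor NRF1, which is known from many genes of respiration, written GCGCANGCGC on either strand (GCGCNTGCGC on the other), with a match on either counted once per promoter. RefSeq promoters on GRCh38.p14, from 250 bases before to 50 after the start, were given for 40 of the 48 members, and 4 of these held the site, against 6.3% of 27305 promoters. Among those that fell, 3 of 7 did, among those that rose 0 of 3, among those that did not pass 0 of 21, and among those not tested 1 of 9. The sites are printed for the 3 genes that fell, with the match in capitals and 10 bases on each side, from chr17:4940044-4940073 (minus strand), chr9:37904103-37904132 (minus strand) and chr12:98593462-98593491 (plus strand).
SLC25A11: tttgcgctgcGCGCCTGCGCccgcgccggc
SLC25A51: gtcacagtctGCGCCTGCGCgggccccggc
SLC25A3: cccggaacgcGCGCCTGCGCagaacgaatc
All 3 read the same 10 letters. A match describes these letters only, since binding was not measured.

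Of the partner genes of these membranes, 27 of 34 listed were tested, and 5 were higher and 5 lower at an adjusted p under 0.05. Among all tested genes 11.6% were higher and 14.1% lower. The median log2 fold change was 0.18 over the 27 partner genes and 0.08 over all tested genes. Both subunits of the mitochondrial pyruvate carrier were lower: MPC1 averaged 15.0 ± 1.37 CPM in irradiated cultures and 29.4 ± 4.92 CPM in controls (SD, n = 3 each; log2 fold change -0.97, edgeR adjusted p = 0.00268), and MPC2 averaged 44.1 CPM in irradiated cultures and 59.9 CPM in controls (-0.44, adjusted p = 0.0486, and 0.010 with library totals). With library totals MPC1 was at -0.51 on the log2 scale and no longer passed (adjusted p = 0.0533). SFXN4, a sideroflexin, had a log2 fold change of -0.72 (edgeR adjusted p = 0.0253), and -0.26 with library totals (0.366). MCU, the pore of the calcium uniporter, averaged 21.9 ± 2.81 CPM in irradiated cultures and 10.5 ± 4.33 CPM in controls (log2 fold change 1.03, edgeR adjusted p = 0.0095). ABCB8, a subunit of a mitochondrial potassium channel, rose with a log2 fold change of 1.60 (edgeR adjusted p = 0.00311).

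Among SLC25-type proteins under other symbols, MTCH1 had a log2 fold change of 0.46 and its relative MTCH2, an outer membrane insertase, one of -0.36 that turned to 0.088 with library totals (edgeR adjusted p = 0.0208 and 0.0404), and the uncoupling protein gene UCP2 did not pass (-0.44, adjusted p = 0.0643). Of the outer membrane and VDAC-bound proteins, HK1, the hexokinase that docks on VDAC1, averaged 76.6 ± 5.09 CPM in irradiated cultures and 55.2 ± 2.59 CPM in controls (SD, n = 3 each; log2 fold change 0.47, edgeR adjusted p = 0.0166). ACSL1, a long-chain acyl-CoA synthetase, was higher (0.98, adjusted p = 0.0252) with overlapping groups, and FUNDC1, a mitophagy receptor, was lower (-0.53, adjusted p = 0.0491, and -0.08 with library totals, 0.742). The length offset ended the calls of MPC2, SFXN4, MTCH2, FUNDC1, HK1 and ACSL1 (adjusted p = 0.136, 0.182, 0.184, 0.386, 0.114 and 0.0572). The calls of MTCH1, MTCH2, MPC2, SFXN4, ACSL1, FUNDC1 and HK1 were each lost without at least 2 of the 6 libraries in turn, while those of MCU, MPC1 and ABCB8 passed without each of them.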

How the data were processed

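Counts per transcript and library were deposited by the authors, who aligned Oxford Nanopore cDNA reads of 3 irradiated and 3 control HMC3 cultures to GRCh38 with minimap2, assembled transcripts and quantified them with Salmon. For the versions of minimap2 and Salmon, the annotation release and the strand setting, nothing is stated in the sources used here. Although the kit adds molecular identifiers, no step that collapses them is named, so counts may include PCR copies. Genes with 10 or more counts in 3 or more libraries were kept, and of their transcripts those with 3 or more counts in any library, provided that 2 or more such transcripts remained, the limits of the study. Kept counts were summed per gene. The kept counts were 95.63% to 96.45% of a library, and library totals ran from 4870897 to 9082409.

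Both levels were tested in R 4.3.3 with edgeR 4.0.16 (TMM factors, robust glmQLFit, glmQLFTest), with Benjamini-Hochberg adjustment over all features. The limits were an adjusted p under 0.05 and, where stated, an absolute log2 fold change over 1. CPM are TMM-normalized, apart from the marker sums, which were scaled by library totals. A standard error was taken as the size of the log2 fold change over the root of its F statistic. Usage was tested with diffSpliceDGE. Transcript models came from GENCODE 29, which holds 164 of the 191 member transcripts and 88.3% of their counts. Scripts were tested on simulated data. Python 3.11.15, pandas 2.3.3 and matplotlib 3.10.9 made tables and plots.

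Members, gene lists and limits were chosen with earlier results of these data known. Values per culture are given for the ADP/ATP carriers, SLC25A3 and VDAC1 to VDAC3, and for other members that were differentially expressed or among the 5 smallest adjusted p in each direction with an adjusted p under 0.05; other genes named passed an adjusted p under 0.05 or were chosen after their values were seen, as were the 50 CPM limit, the length, 3′-end and motif summaries and SLC25A44. Partner genes named passed, apart from UCP2, and transcripts named were differentially abundant (up to 10 in each direction), switched or the most used of a gene, apart from the exon 3A and decay forms of SLC25A3, ENST00000543351, ENST00000491736, ENST00000519192 and ENST00000711214, which were chosen after their values were seen. Groups called separate or without overlap are descriptions, since the share of all tested genes without overlap is not given here. No pairing of cultures by replicate number is stated. Deviations of same-numbered cultures correlated at -0.002, 0.103 and 0.023, which with 3 cultures a group cannot settle whether they were paired. Alternatives were RLE factors, library totals, DESeq2 1.42.0, other filters, a length offset, diffSplice of limma 3.58.1, length-divided fractions, a dIF limit of 0.05, the adjusted p alone, a replicate block and each library left out. Proteins were not measured in these files. The values of 1 member are counted in the totals but not reported here.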

Additional observations from a re-analysis of the deposited data

How the results depend on the processing

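TMM factors differed between groups, and scaling by library totals alone moved the median of all genes to 0.53 on the log2 scale, against 0.08 with TMM. Under that scaling 9 members were higher and 3 lower (32.8% and 3.19% of all genes), 5 were higher past both limits (17.3% of all genes), the member median was 0.31, 35 member transcripts passed both limits (30 higher and 5 lower) and 4 partner genes did. The log2 fold changes of SLC25A3, VDAC2, SLC25A4, MTCH2 and MPC2 turned to 0.101, 0.155, 0.323, 0.088 and 0.010, and SLC25A11, SLC25A17, SLC25A51, VDAC3, MPC1, SFXN4 and FUNDC1 lost their calls. The direction of these genes is therefore relative to the other genes of a library. SLC25A5, SLC25A6, VDAC1 and SLC25A28 passed an adjusted p under 0.05 in the same direction under all 13 alternatives run, although with library totals SLC25A5, SLC25A6 and VDAC1 were at -0.348, -0.280 and -0.332, against -0.804, -0.735 and -0.788 with TMM.

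Past both limits, 0 members remained with RLE factors, DESeq2, filterByExpr and a replicate block, since SLC25A28 lay on the limit of the fold change (0.97, 0.97, 0.99 and 1.00). The adjusted p alone gave 12 members, 10 partner genes and 49 member transcripts. The length offset gave 1 higher member and 1 partner gene past both limits, and DESeq2 gave 8 member transcripts. That member was SLC25A28, whose length rests on only part of its transcripts. The replicate block left 4 members higher and 10 lower, against 1548 and 1681 of all genes. It left 17 transcripts past both limits and 4 switched isoforms, and VDAC2 then passed (edgeR adjusted p = 0.0384). Whether the replicate numbers pair the cultures is not stated. Leaving out each library gave 0 to 2 members past both limits, 1 to 4 higher, 7 to 11 lower, a member median of -0.31 to 0.013, 10 to 29 transcripts, 1 to 6 switched isoforms and 1 to 4 partner genes. Among all genes, 693 to 1737 were then higher and 977 to 1920 lower. The log2 fold change of SLC25A4 ran from -0.345 without control replicate 3 to 0.034 without control replicate 1. The cause of these shifts was not tested. With 3 cultures a group, changes in members or partner genes under 10 CPM were measured with few reads. Of 191 member transcripts, 34 had under 20 counts in all.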
